A study of Mus musculus with 6 samples.

Results

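The replication-dependent histone genes were taken as the rows of the deposited count table whose gene symbol starts as a clustered histone or numbered linker histone symbol does (Hist followed by a digit and h, or H1f, H2ac, H2bc, H3c or H4c followed by a digit). The rule took 69 of 25239 rows. Of these, 64 are replication-dependent genes (5 of linker histone H1, 18 of H2A, 17 of H2B, 12 of H3 and 12 of H4), and 5 are linker genes not tied to S phase or made in germ cells (H1f0, H1f6, H1f7, H1f8 and H1f10). The genes were compared between 3 ovary libraries labelled WT and 3 labelled Hnrnpl-null, all from C57BL/6 mice at E18.5. The titles of the Hnrnpl-null libraries carry CKO, and the labels give neither a Cre driver nor the deleted exons, so which cells lost Hnrnpl is not known from them. Ovaries of both groups were dissociated with Liberase and DNase, the cell type is labelled oocyte, no sort is named, and libraries were made from total RNA with an ABclonal fast RNA-seq kit. The labels do not tie the libraries to different animals, and p-values below reflect only how far the libraries of a group spread, some of which can be technical.

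Replication-dependent histone genes make the H2A, H2B, H3 and H4 that form nucleosomes, and the H1 that binds the linker DNA between them, when a cell copies its DNA. They lie in clusters, mostly lack introns, and are transcribed in S phase under NPAT. Their mRNAs end in a short stem-loop bound by SLBP in place of a poly(A) tail and are degraded when DNA synthesis stops. In the ovary around birth, oocytes are in meiotic prophase and no longer replicate DNA, whereas somatic and blood cells can still divide. Because most of these mRNAs lack a poly(A) tail, their level in a library also depends on how RNA was selected, and the labels state no step beyond total RNA.

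The libraries held 8949781 to 22401419 counts, with 18.6% to 86.1% of them in Rn45s (45S pre-ribosomal RNA). WT replicate 1 (83.0%) and Hnrnpl-null replicate 3 (86.1%) stood apart, and 1757572 to 10980179 counts per library were left outside Rn45s. Levels below are CPM, counts scaled to a common library total with TMM factors, and log2 fold changes are Hnrnpl-null against WT. Hnrnpl itself gave 172, 169 and 145 CPM across WT and 166, 173 and 213 CPM in the other group, a log2 fold change of 0.18 ± 0.13 (SE, n = 3 and 3, edgeR adjusted p = 0.499). The gene-level count therefore did not separate the groups that the labels name. Of 10 markers of the labelled cell type, the oocyte, 9 fell at an edgeR adjusted p below 0.05, as did 1.79% of all genes tested. Among the 9, 1 passed the filter on low counts through WT alone. The summed level of the 10 was 330 to 341 CPM in WT against 113 to 135 CPM in Hnrnpl-null libraries.

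The sequence that sets these mRNAs apart is shown first, because an mRNA that ends in it carries no poly(A) tail. The 16 letters GGNNCTTTTCAGNGCC (N for any base) were searched on the sense strand of the GENCODE transcripts of build GRCm38. They were found in 29 of the 68 members with a matched transcript (42.65%), among them 3 of 5 H1, 8 of 17 H2A, 7 of 17 H2B, 5 of 12 H3 and 6 of 12 H4 genes, and in 0 of the 5 other linker genes. Within the last 100 bases of a transcript they stood in 16 of the 68 members (23.53%) and in 0 of 21784 other protein-coding genes. Below are 26-base stretches of 5 members, 5′ to 3′ as DNA, with the matched letters in capitals.
H1f2: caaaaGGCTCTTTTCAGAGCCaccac
H2ac4: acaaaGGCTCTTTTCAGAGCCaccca
H3c1: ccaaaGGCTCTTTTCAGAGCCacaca
H4c8: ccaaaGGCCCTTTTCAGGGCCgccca
H4c4: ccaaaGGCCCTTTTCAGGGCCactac
Of the 29 matches, 23 have the stem of H1f2, H2ac4 and H3c1 and 6, all in H4 genes, have that of H4c8 and H4c4. Some annotated transcripts end soon after these letters (11 bases in H2ac4, 37 in H3c1, 46 in H4c8) and others run on (840 bases in H1f2, 770 in H4c4). A member without a match may have other letters or an annotated end that stops short of the stem-loop.

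Most histone genes had higher values in the Hnrnpl-null libraries, and few passed the test singly. Of the 69 members, 57 passed the filter on low counts and were tested. Of the replication-dependent genes, 5 rose (H2bc3, H2bc15, H1f5, H1f2 and H3c6) and 0 of the 57 fell at an adjusted p below 0.05 (edgeR quasi-likelihood test, Benjamini-Hochberg over 14849 genes). Over all genes tested, 2.67% rose and 1.79% fell. At an unadjusted p below 0.05 the edgeR counts were 29 higher and 1 lower, where 9.97% of all genes tested were higher and 8.53% lower. DESeq2 called 12 members higher and 0 lower (4.07% and 2.69% of all genes with an adjusted p), and limma-voom 10 higher and 0 lower (5.22% and 3.35% of all genes). With library totals alone in place of TMM, edgeR called 0 members, with 0 at an unadjusted p below 0.05, and 4 genes in the whole table. The log2 fold change was above 0 in 54 of the 57, against 48.8% of all genes tested, and its median was 0.78 against -0.01 for all genes tested. The libraries of the groups did not overlap in 19 members that were higher, where 12.4% of all genes tested were so, and in 1 that was lower, where 13.2% of all genes were so.

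**Figure D1:**
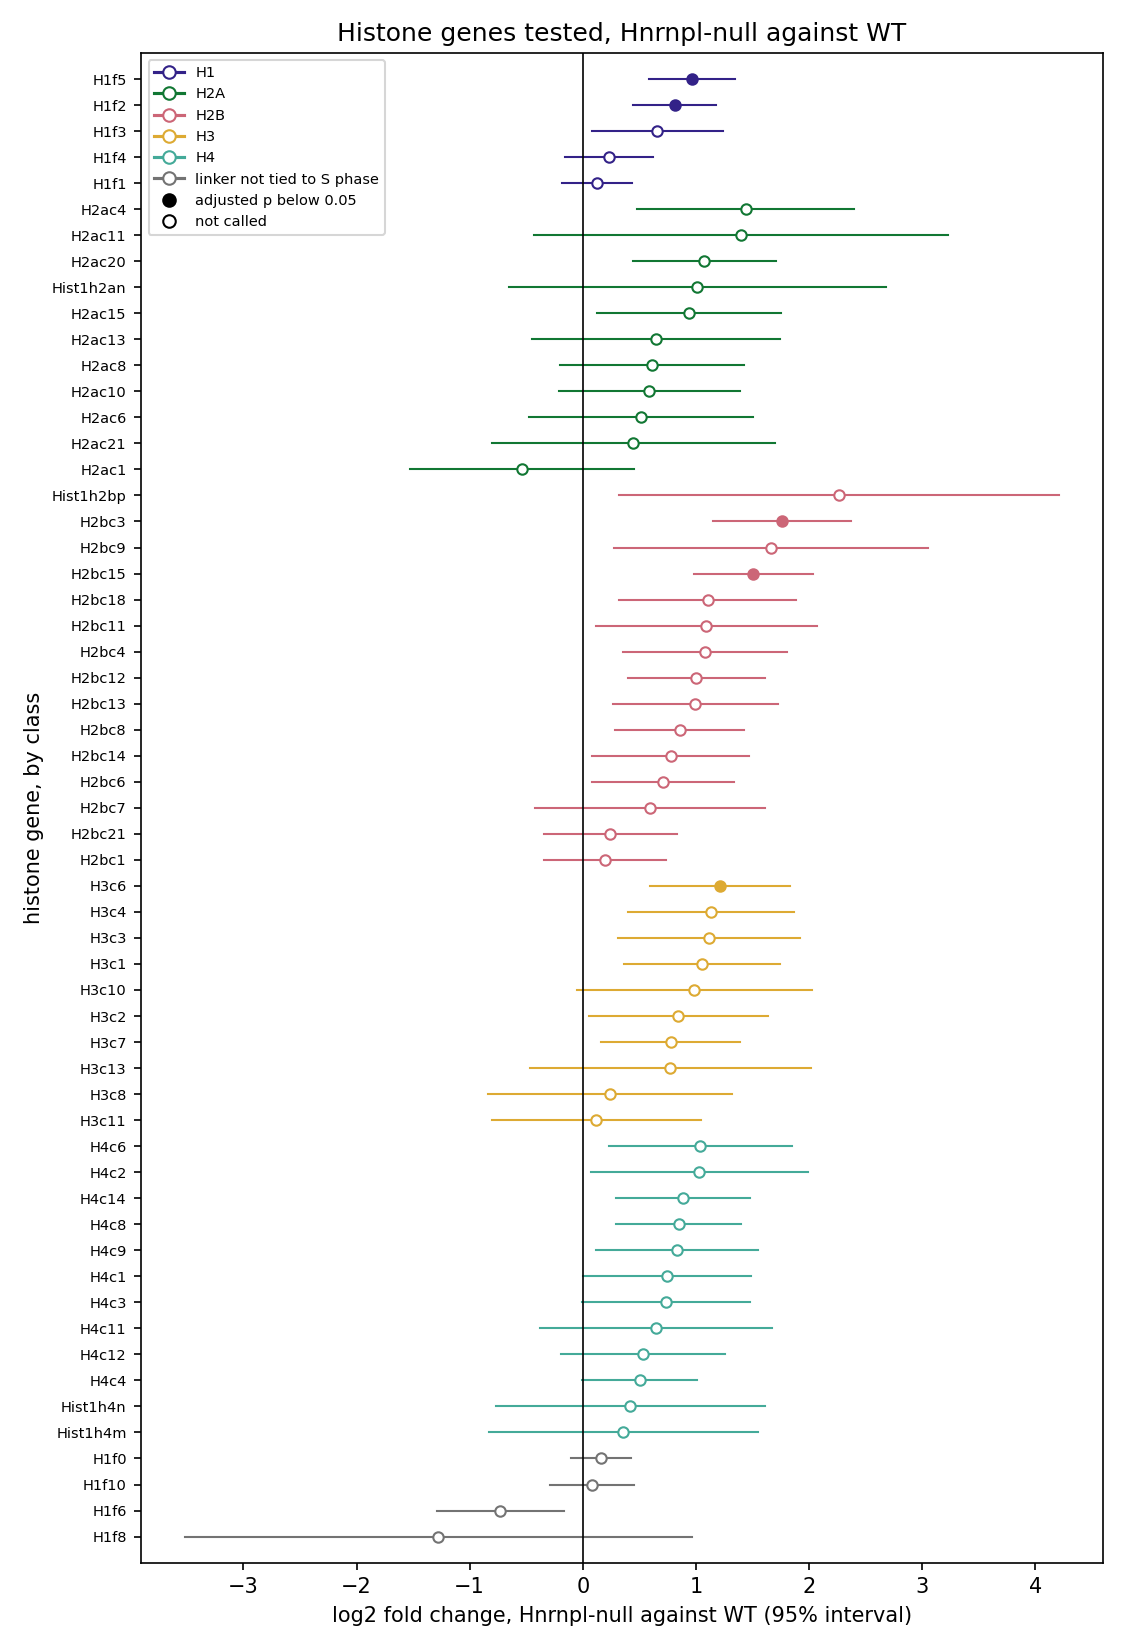
Log2 fold change, Hnrnpl-null against WT, of the 57 histone genes tested, by class. Points are edgeR estimates from 3 and 3 libraries, lines their 95% intervals and filled points the 5 genes with an adjusted p below 0.05. Most points lie right of 0, the widest intervals belong to genes with few counts, and H2ac1, H1f6 and H1f8 lie left of 0.

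Of the members tested, 40 reached the filter's floor in every library of both groups, 9 only in the Hnrnpl-null group, 1 only in WT and 7 in neither group alone. The floor was set on CPM of the deposited totals, and passing through 1 group alone favours higher values there without requiring them. The member that passed through WT alone had a log2 fold change of 0.12. The counts were therefore also taken over the 40. Among those 40, 38 had a log2 fold change above 0, the median was 0.84 and the 5 called genes were all among them. The 12 members not tested were 8 whose gene model another model overlaps (Hist1h2ao, Hist1h2ap, H2ac18, H2ac19, Hist1h2bq, Hist1h2br, H3c14 and H3c15, with at most 1 count in all), H1f7 with no counts, and H2ac12, H2ac7 and Hist1h2al with too few. Zeros in the 8 overlapped rows carry no information on those genes.

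H2bc3, an H2B gene at chr13:23746734-23747223 (plus strand, mm10), was at 2.90, 2.24 and 3.17 CPM across WT and 10.5, 8.03 and 9.37 CPM across Hnrnpl-null libraries. Every Hnrnpl-null library was above every WT library, with a log2 fold change of 1.76 ± 0.28 (SE, n = 3 and 3, edgeR adjusted p = 0.00294). H2bc15, another H2B gene (chr13:21754076-21754553, plus strand), was at 5.27, 3.90 and 7.17 CPM across WT and 15.2, 15.4 and 15.6 CPM across Hnrnpl-null libraries. The Hnrnpl-null libraries lay close together and above WT, with a log2 fold change of 1.51 ± 0.24 (SE, n = 3 and 3, edgeR adjusted p = 0.00312). These calls for H2bc3 and H2bc15 were kept when any 1 of the 6 libraries was left out.

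H1f5, a linker histone gene (chr13:21779832-21780625, minus strand), was at 16.9, 15.6 and 21.6 CPM across WT and 35.2, 29.0 and 43.1 CPM across Hnrnpl-null libraries. The groups did not overlap and the log2 fold change was 0.97 ± 0.18 (SE, n = 3 and 3, edgeR adjusted p = 0.00732). H1f2, the H1 gene with the highest level per kilobase here (chr13:23738807-23739531, plus strand), was at 37.4, 34 and 51.9 CPM across WT and 74.4, 59.4 and 85.0 CPM across Hnrnpl-null libraries. Again the groups were apart, by a log2 fold change of 0.81 ± 0.17 (SE, n = 3 and 3, edgeR adjusted p = 0.0159). H3c6, an H3 gene (chr13:23561475-23562385, minus strand), was at 7.38, 8.04 and 16.5 CPM across WT and 24.5, 19.0 and 33.4 CPM across Hnrnpl-null libraries. WT replicate 3 was the highest WT library in each of the 5 called genes and came close to Hnrnpl-null replicate 2 in H3c6, whose log2 fold change was 1.21 ± 0.29 (SE, n = 3 and 3, edgeR adjusted p = 0.0301). Leaving out WT replicate 2 ended the call of H1f5 (edgeR adjusted p = 0.0562). For H1f2 it ended in 3 of the 6 fits, those without WT replicate 1 (edgeR adjusted p = 0.0517), WT replicate 2 (0.101) or Hnrnpl-null replicate 1 (0.0542), and for H3c6 without any 1 of WT replicates 1 and 2 and Hnrnpl-null replicates 1 and 3 (up to 0.151 in edgeR).

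**Figure D2:**
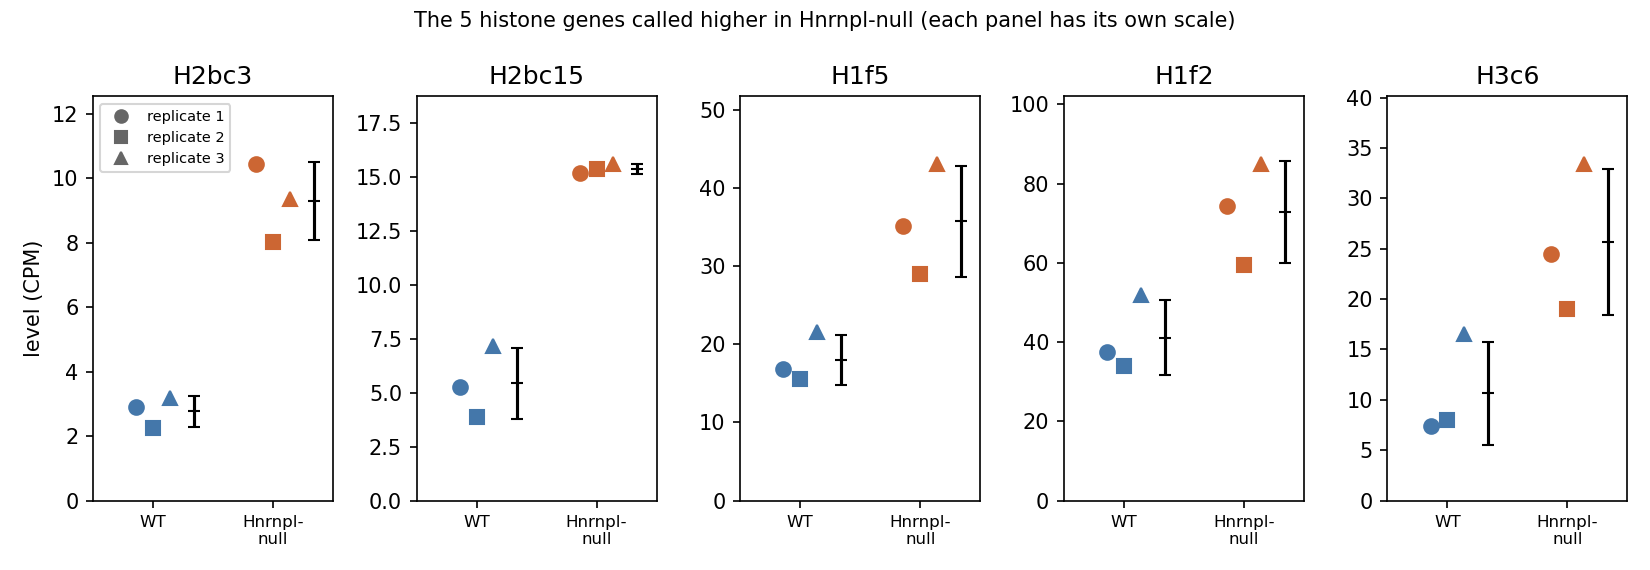
Level in CPM of the 5 called histone genes in each library, WT beside Hnrnpl-null, with the group mean and SD as a bar (n = 3). In each gene the 3 Hnrnpl-null libraries lie above the 3 WT libraries, and H2bc15 has the tightest Hnrnpl-null values (15.2 to 15.6 CPM).

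Differences between the 5 replication-dependent H1 genes in their log2 fold change were not tested. H1f2 and H1f5 rose, and the other 3 were not called: the log2 fold change was 0.66 ± 0.27 in H1f3, 0.23 ± 0.18 in H1f4 and 0.13 ± 0.14 in H1f1 (SE, n = 3 and 3, edgeR adjusted p of 0.206, 0.549 and 0.704). H1f4, a widely expressed H1 gene, was at 56.9, 42.0 and 59.8 CPM across WT and 52.9, 52.9 and 83.1 CPM across Hnrnpl-null libraries, and the groups overlapped. H1f1 was at 30.8, 25.2 and 33.5 CPM against 34.9, 30.0 and 32.5 CPM, again with overlap. On a scale per kilobase of gene length, H1f2 made up 24.2% to 28.6% of the 5 genes' summed level in WT and 32.1% to 33.6% in Hnrnpl-null libraries. The share of H1f5 was 9.96% to 11.7% in WT and 14.5% to 14.9% in Hnrnpl-null libraries. In contrast, the share of H1f4 was 30.5% to 34.1% and then 22.2% to 29.1%, and that of H1f1 17.9% to 20.1% and then 12% to 16%. The shares of these 4 genes did not overlap between the groups, whereas those of H1f3 did. Shares of 1 sum depend on each other and were not tested.

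**Figure D3:**
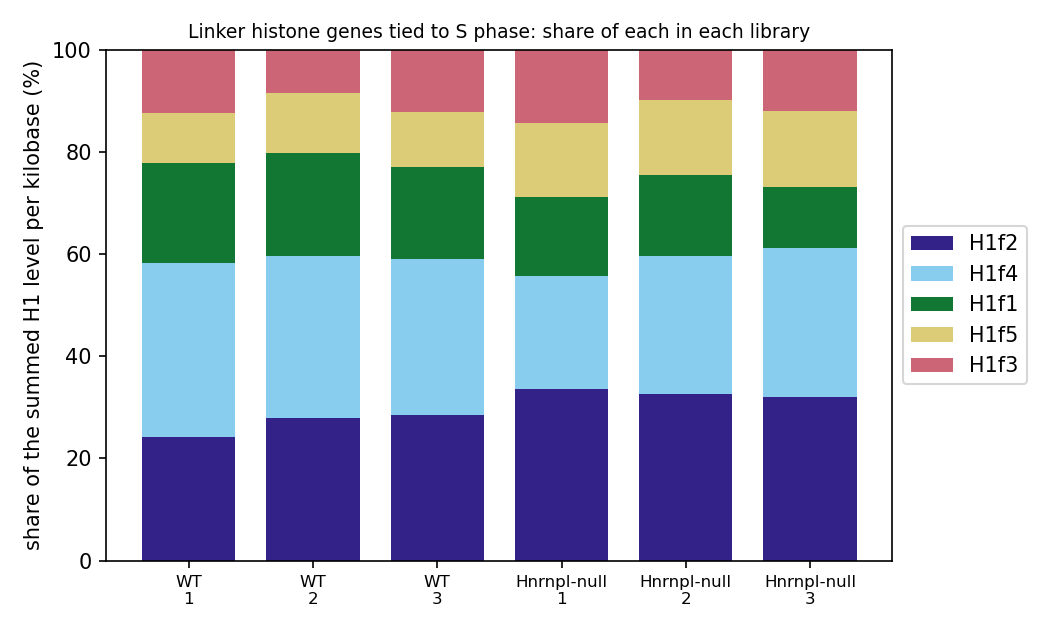
Share of each replication-dependent H1 gene in the summed H1 level per kilobase, in percent, in each library. H1f2 and H1f5 take more of the sum in every Hnrnpl-null library than in any WT library (H1f5 14.5% to 14.9% against 9.96% to 11.7%), and H1f4 and H1f1 take less.

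The H2A and H2B genes encode partners that enter nucleosomes as dimers. Of the 15 H2B genes tested, 12 reached the filter's floor in both groups. These 12 had log2 fold changes above 0 (median 1.0), 2 of them were called, where 2.67% of all genes tested rose, and the groups did not overlap in 8, where 12.4% of all genes were so. Of the 11 H2A genes tested, only 4 reached the floor in both groups, and 3 of these were above 0 and 1 did not overlap. Another 5 H2A genes, of which 2 did not overlap (H2ac8 and H2ac4), passed through the Hnrnpl-null group alone, which favours higher values there. edgeR called 0 of the 11 H2A genes, and 3 were higher at an unadjusted p below 0.05, where 9.97% of all genes tested were so. DESeq2 called 2 (H2ac20 and H2ac4) and limma-voom called 0, where 4.07% and 5.22% of all genes were called higher. The H2A gene with the highest level per kilobase, H2ac15, was at 10.01, 3.40 and 10.2 CPM across WT and 17.5, 8.99 and 18.7 CPM across Hnrnpl-null libraries. Replicate 2 was the lowest of each group there, the groups overlapped, and the log2 fold change was 0.94 ± 0.38 (SE, n = 3 and 3, edgeR adjusted p = 0.198). H2ac20 did not overlap between groups, with a log2 fold change of 1.07 ± 0.29 (SE, n = 3 and 3, edgeR adjusted p = 0.0557), and the third by level, H2ac10, had 0.59 ± 0.37 (adjusted p = 0.442).

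H2bc1 and H2ac1 are copies known from the germ line, where they encode testis-type H2B and H2A and are also found in oocytes. H2bc1 had the highest level per kilobase of the H2B genes and was at 19.0, 16.3 and 26.9 CPM across WT and 21.8, 17.1 and 35.6 CPM across Hnrnpl-null libraries. The groups overlapped (log2 fold change 0.20 ± 0.25, SE, n = 3 and 3, edgeR adjusted p = 0.736), and the sign turned under 3 other settings: -0.04 with library totals alone, -0.09 without Hnrnpl-null replicate 3 and -0.13 without both Rn45s-rich libraries. As a share of the H2B sum per kilobase, H2bc1 was at 29.1% to 36.5% in WT and 17.7% to 25.2% in Hnrnpl-null libraries, without overlap. The share of H4c4 in the H4 sum was also lower without overlap (29.5% to 33.7% against 26.8% to 27.3%). That of H2bc15 in the H2B sum was higher (6.84% to 8.80% against 9.98% to 15.8%). A share falls when other members rise more, and shares were not tested. H2ac1, at 4.74, 2.57 and 3.72 CPM across WT and 2.40, 1.6 and 4.37 CPM across Hnrnpl-null libraries, was the 1 replication-dependent member with a log2 fold change below 0 (-0.54 ± 0.46, SE, n = 3 and 3, edgeR adjusted p = 0.588). H2bc18, an H2B gene of the chromosome 3 cluster, had a log2 fold change of 1.10 ± 0.36 (SE, n = 3 and 3, edgeR adjusted p = 0.112) that leaned on Hnrnpl-null replicate 1. That library was at 27.4 CPM, against 9.52 and 11.9 CPM in the other Hnrnpl-null libraries and 5.56 to 11.1 CPM in WT.

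Of the 10 H3 genes tested, 6 reached the filter's floor in both groups, and these 6 were above 0 (median 1.09). edgeR called H3c6 alone, DESeq2 called 3 and limma-voom 2. H3c3 was at 2.63, 4.97 and 8.27 CPM across WT and 15.6, 7.01 and 13.4 CPM across Hnrnpl-null libraries, and H3c7 at 8.69, 7.05 and 10.6 CPM across WT and 13.9, 10.1 and 23.7 CPM. In both, Hnrnpl-null replicate 2 lay below WT replicate 3, and the log2 fold changes of 1.12 ± 0.37 and 0.78 ± 0.29 were not called (SE, n = 3 and 3, edgeR adjusted p of 0.119 and 0.153). Of the 12 H4 genes tested, 10 reached the floor in both groups, and these 10 were above 0 (median 0.79). edgeR called 0 of the 12, 5 were higher at an unadjusted p below 0.05, and DESeq2 (H4c6) and limma-voom (H4c14) called 1 each. Over all genes, edgeR, DESeq2 and limma-voom called 2.67%, 4.07% and 5.22% higher. In edgeR, 9.97% of all genes tested were higher at an unadjusted p below 0.05, and 48.8% had a log2 fold change above 0. H4c4 and H4c8 had the highest levels per kilobase of all members, with means of 115 and 102 CPM per kilobase over the 6 libraries. H4c8 (chr13:23531044-23531478, plus strand) was at 31.4, 25.2 and 36.8 CPM across WT and 52.7, 34 and 86.2 CPM across Hnrnpl-null libraries, with the lowest Hnrnpl-null library below the highest WT library. Its log2 fold change was 0.85 ± 0.26 (SE, n = 3 and 3, edgeR adjusted p = 0.0831), against 0.50 ± 0.24 for H4c4 (adjusted p = 0.276) and 0.53 ± 0.34 for H4c12 (adjusted p = 0.442). Without Hnrnpl-null replicate 2, H4c8 passed the test (log2 fold change 1.14, edgeR adjusted p = 0.0163).

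The linker genes not tied to S phase lay on both sides of 0. Their median log2 fold change was -0.32 over 4 tested, and 0.08 over the 3 that reached the filter's floor in both groups. Of the 4, edgeR, DESeq2 and limma-voom each called 0. In each, 1 (H1f6) was lower at an unadjusted p below 0.05 (8.53% of all genes tested in edgeR). The difference between these genes and the replication-dependent ones was not tested. H1f0, the linker histone of resting and differentiated cells, was at 233, 187 and 195 CPM across WT and 210, 235 and 244 CPM across Hnrnpl-null libraries, with a log2 fold change of 0.16 ± 0.12 (SE, n = 3 and 3, edgeR adjusted p = 0.539). H1f10, a replication-independent linker histone, was at 28.5, 31.9 and 32.4 CPM against 30.8, 26.5 and 43.7 CPM (log2 fold change 0.08 ± 0.17, SE, n = 3 and 3, edgeR adjusted p = 0.851). The groups overlapped in both, and the sign of H1f10 turned under 4 settings, 1 of them another scaling (-0.12 with library totals alone). H1f6, the testis linker histone H1t, was at 7.64, 6.80 and 7.58 CPM across WT and 4.81, 4.04 and 4.37 CPM across Hnrnpl-null libraries. It was the 1 member whose Hnrnpl-null libraries all lay below WT (log2 fold change -0.73 ± 0.26, SE, n = 3 and 3, edgeR adjusted p = 0.144). H1f8, the oocyte linker histone, had 0, 22 and 15 counts in WT and 14, 2 and 0 counts in Hnrnpl-null libraries, too few to compare (edgeR adjusted p = 0.565).

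Summed over the 64 replication-dependent genes, the level was 428, 349 and 542 CPM in WT (440 ± 96.7, SD, n = 3) against 743, 541 and 906 CPM in Hnrnpl-null libraries (730 ± 183, SD, n = 3). The ratio of the means was 1.66, and the groups touched, since Hnrnpl-null replicate 2 (541.2 CPM) lay just under WT replicate 3 (541.6 CPM). The ratio was 1.46 for H1 genes, 1.76 for H2A, 1.81 for H2B, 2.0 for H3 and 1.68 for H4, and the class sums did not overlap between groups except for H4. In H1 the groups nearly touched (highest WT library 190.3 CPM, lowest Hnrnpl-null library 190.5 CPM), and in H2A they lay close (41.7 and 42.7 CPM). For the linker genes not tied to S phase the ratio of means was 1.10, with overlap. Within each group the libraries stood in the same order in the sum, replicate 2 lowest, replicate 1 between and replicate 3 highest. Fewer cells of a type and less RNA per cell cannot be told apart in such bulk libraries.

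**Figure D4:**
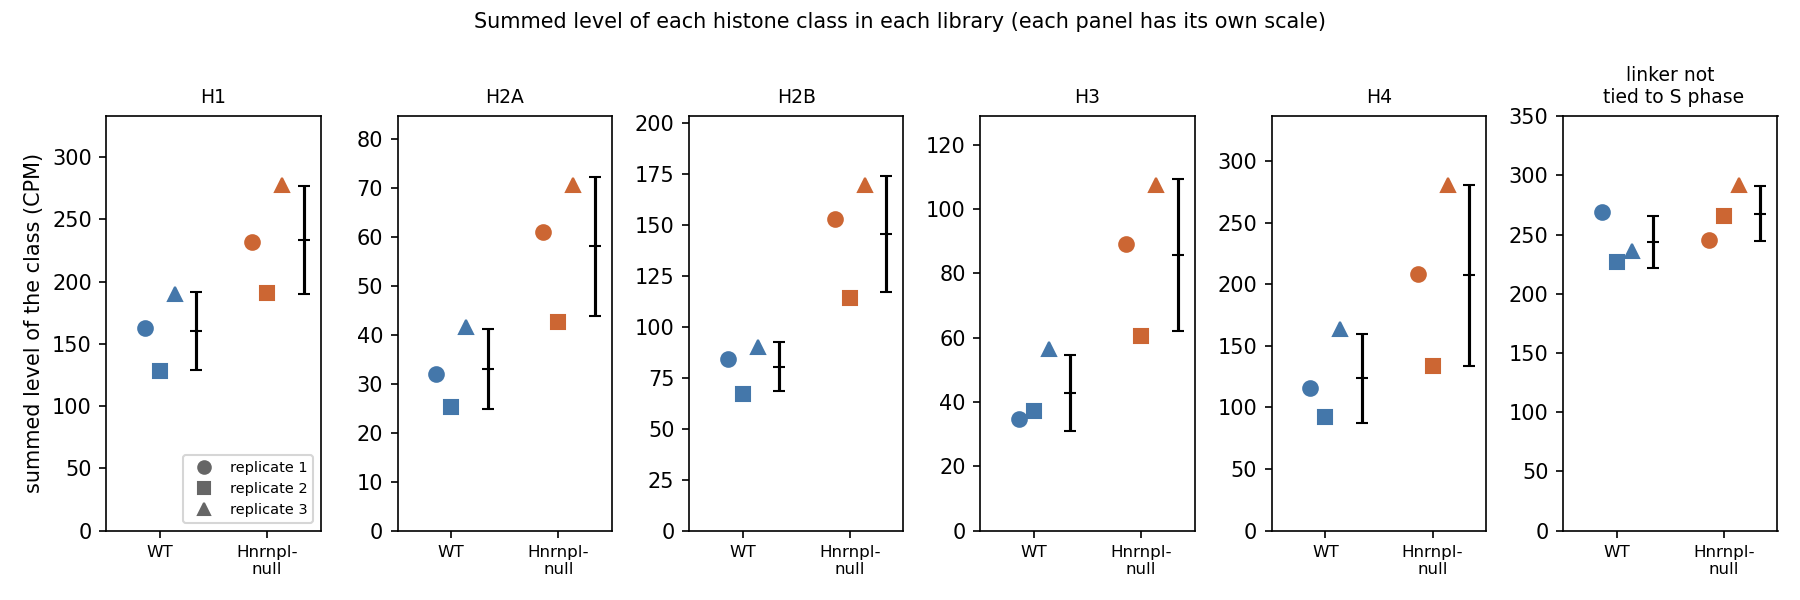
Summed level in CPM of the histone genes of each class in each library, WT beside Hnrnpl-null, with the group mean and SD as a bar (n = 3). H3 shows the largest ratio of means (2.0), and the linker genes not tied to S phase overlap between the groups (227 to 269 against 246 to 292 CPM).

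Levels of other genes are given beside that sum. Small non-polyadenylated RNAs (131 genes of the snoRNA, scaRNA, snRNA and related families), which a poly(A) selection would also remove, summed to 3984, 2796 and 5861 CPM across WT and 5139, 2488 and 6432 CPM across Hnrnpl-null libraries. They had the same order of libraries within each group as the histone sum, and overlapped between the groups. edgeR, DESeq2 and limma-voom each called 0 of them, edgeR with 59 tested, a median log2 fold change of 0.24 and 3 higher at an unadjusted p below 0.05. For these and the markers below, edgeR called 2.67% of all genes tested higher and 1.79% lower. At an unadjusted p below 0.05, 9.97% of all genes tested were higher and 8.53% lower. With the histone sum taken relative to the counts of these small RNAs, an alternative added after seeing the data, the log2 ratio of means was 0.63, against 0.73 on library size, and the groups did not overlap. With their share as a covariate, 8 members were called, the 5 named above among them. Beside the histone genes, 7 of 8 blood progenitor and myeloid granule markers rose (summed level 37.3 to 40.7 CPM across WT and 600 to 776 CPM across Hnrnpl-null libraries), as did 5 of 5 mast cell markers tested (155 to 162 against 792 to 922 CPM). All 7 called progenitor and granule markers passed the filter through the Hnrnpl-null group alone, which favours higher values there. The remaining 1 of that list passed in both groups and was not called. Of 11 leukocyte and macrophage markers, 4 rose (summed level of the list 76.3 to 88.7 against 170 to 184 CPM), namely Coro1a, Laptm5, Ptprc and Cx3cr1. The uncalled C1qa (-0.25), C1qb (0.10), Lyz2 (0.14) and Fcer1g (1.08, passed through the Hnrnpl-null group alone) overlapped between groups. Csf1r (0.54), Adgre1 (0.69) and Tyrobp (1.36) were higher without overlap and not called by edgeR. The summed erythroid level overlapped between groups (35.5 to 47.9 against 43.7 to 91.0 CPM), and the 5 erythroid markers tested had log2 fold changes above 0. edgeR called 0 of them, with 3 higher at an unadjusted p below 0.05, whereas DESeq2 and limma-voom called Alas2 (0.94 in edgeR) and Slc4a1 (1.23 in edgeR) higher. The globin genes Hba-a1 and Hbb-bs, each overlapped by another gene model, were at 0. The summed pregranulosa level was higher without overlap (431 to 454 CPM across WT and 498 to 544 CPM across Hnrnpl-null libraries). Of 7 pregranulosa markers Kitl rose, while Fst (-0.39, groups apart), Nr5a1 (-0.23) and Lgr5 (-0.13) had log2 fold changes below 0 and were not called. The summed stromal level was also higher without overlap (4164 to 4484 against 6237 to 7036 CPM). Of 6 stromal markers Col1a1, Col1a2 and Dcn rose, while Tcf21 (-0.16) and Nr2f2 (-0.04) were below 0 and not called. Endothelial sums overlapped (132 to 159 against 144 to 152 CPM), but single markers lay apart between the groups: Cdh5 (-0.64) and Emcn (-0.81, passed through WT alone) lower and Kdr (0.35) higher. edgeR called 0 of the 5, with 1 higher and 1 lower at an unadjusted p below 0.05, and DESeq2 and limma-voom called Cdh5 and Kdr. The part of these cells, and of RNA selection, in the histone levels was not tested.

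**Figure D5:**
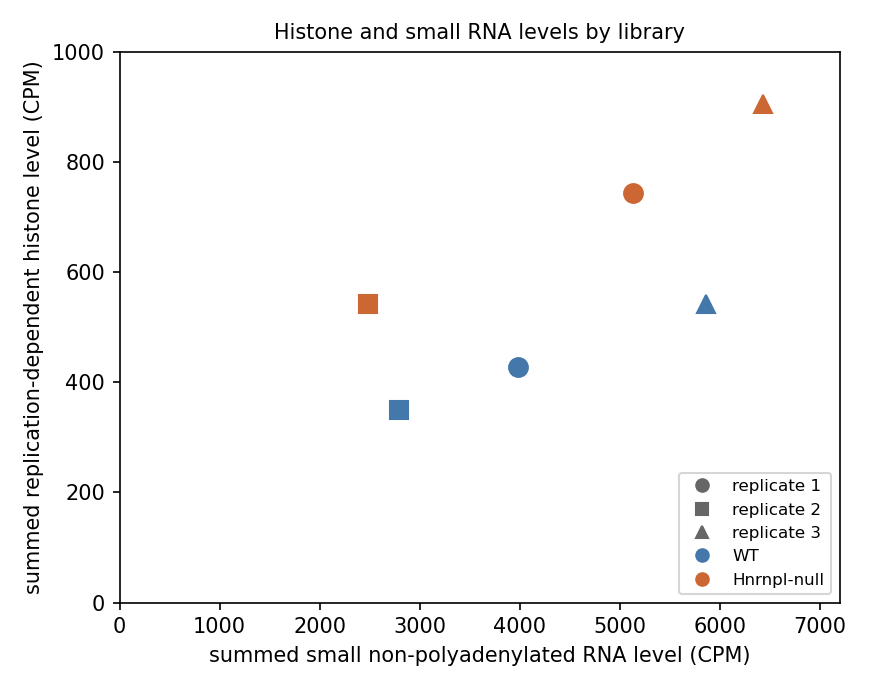
Summed level of the replication-dependent histone genes against that of small non-polyadenylated RNAs in each library, both in CPM. Replicate 2 is lowest and replicate 3 highest on both axes within each group, and at a similar small RNA level the Hnrnpl-null libraries lie above WT.

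Many histone genes are near copies of each other, and how the authors treated reads that map to several places is not given in the sources used here. Of the 50-base stretches of the transcript, 86.4% in H2bc15, 73.4% in H3c6, 40.1% in H2bc3 and 8.5% in H1f2 also occurred in other members, and 0% in H1f5. Counts of the first 3 genes are therefore uncertain as to which copy made them. These shares are over the annotated transcript, which in some members is longer than the counted gene model (1138 against 402 bases in H4c4, 7425 against 776 in H1f3). Over the counted part alone the share was not computed and may be higher. Of the replication-dependent genes at the filter's floor in both groups, 11 had under 20% of such stretches shared. Of these, 10 had a log2 fold change above 0 (median 0.71) and 2 were called. The other 26, with 20% or more, were above 0 (median 0.97), and 3 were called. Members in which the stem-loop letters were found (15 at the floor in both groups, median 0.81, 1 called) lay beside those in which they were not (22, median 0.95, 4 called). The first stretch of the chromosome 13 cluster (21715711 to 22043658) had a median of 0.95 over 10 genes at the floor in both groups, the second (23531044 to 23934913) 0.80 over 24, and the chromosome 3 cluster (96219885 to 96270192) 0.98 over 4. These medians are descriptions, and their differences were not tested.

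Promoters were read from the RefSeq table of build GRCm38.p6, which matched 62 members, as windows of 250 bases before to 50 bases after the start. TATAAA, the TATA box, was found on either strand in 54.84% of them, against 13.04% of 18651 genes of the table. CCAAT, the element bound by the factor NF-Y, was found in 82.26% against 39.15%. It was in every matched promoter of the H1 (5), H2A (16), H2B (15) and H3 (10) genes and in 3 of 11 H4 promoters. The octamer ATTTGCAT, known from H2B promoters and bound by the factor OCT1, was found in 19.35% against 1.678%, all of them in 6 H2A and 6 H2B promoters. Many H2A and H2B genes share a promoter, so these counts are not independent. The 250 bases before the start are shown 5′ to 3′ on the gene's strand for 3 called genes of different classes and for H4c8, which had none of the 3 motifs, with the motifs or their reverse complements in capitals.
H2bc3 (chr13:23746484-23746733, plus strand): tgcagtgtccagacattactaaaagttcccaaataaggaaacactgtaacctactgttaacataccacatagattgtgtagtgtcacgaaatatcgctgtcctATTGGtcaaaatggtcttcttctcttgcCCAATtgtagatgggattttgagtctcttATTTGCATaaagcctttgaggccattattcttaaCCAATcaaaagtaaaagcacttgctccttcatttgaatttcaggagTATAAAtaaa
H1f5 (chr13:21780626-21780875, minus strand): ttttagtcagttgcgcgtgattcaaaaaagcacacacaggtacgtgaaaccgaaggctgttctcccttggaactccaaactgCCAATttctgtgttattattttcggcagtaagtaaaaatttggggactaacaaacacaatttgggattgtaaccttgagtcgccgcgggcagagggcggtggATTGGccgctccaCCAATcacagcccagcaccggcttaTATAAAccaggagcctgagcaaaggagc
H3c6 (chr13:23562386-23562635, minus strand): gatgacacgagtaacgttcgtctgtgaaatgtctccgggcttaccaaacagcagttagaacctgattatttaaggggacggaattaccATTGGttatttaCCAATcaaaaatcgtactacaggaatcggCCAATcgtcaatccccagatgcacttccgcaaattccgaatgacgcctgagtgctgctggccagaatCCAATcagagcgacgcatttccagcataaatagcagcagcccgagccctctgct
H4c8 (chr13:23530794-23531043, plus strand): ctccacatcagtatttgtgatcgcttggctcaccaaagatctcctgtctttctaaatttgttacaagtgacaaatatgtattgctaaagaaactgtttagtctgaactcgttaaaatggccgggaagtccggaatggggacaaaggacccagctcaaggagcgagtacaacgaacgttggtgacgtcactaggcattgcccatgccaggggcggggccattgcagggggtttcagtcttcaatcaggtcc
H2bc3 held all 3 motifs, H1f5 the TATA box and CCAAT, and H3c6 only CCAAT, in 4 copies. A match is a description of the letters and not a bound site.

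Promoter windows overlapped in 9 pairs of H2A and H2B genes, and both genes were tested in 6 of them. Only 2 of these 6 pairs had both partners at the filter's floor in both groups. Their log2 fold changes were 0.94 in H2ac15 and 1.51 in H2bc15, and -0.54 in H2ac1 and 0.20 in H2bc1. In 3 of the others the H2A partner passed through the Hnrnpl-null group alone, so the signs of those pairs were not read. The H2B partner had the higher level per kilobase in 5 of these 6 pairs, most in H2bc1 (52.7 against 6.78 CPM per kilobase in H2ac1).

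Of 37 genes for histone transcription and 3′ end processing, 2 rose, 0 fell (2.67% and 1.79% of all genes tested) and the median log2 fold change was -0.06. At an unadjusted p below 0.05 in edgeR, 2 were higher and 1 lower (9.97% and 8.53% of all genes tested). Those that rose were Gapdh (0.85 ± 0.11, edgeR adjusted p = 0.000697) and Ldha (0.52 ± 0.12, edgeR adjusted p = 0.0224), glycolytic enzymes that also occur in a cofactor complex on the H2B octamer. DESeq2 and limma-voom called the same 2. With 1 library left out, Gapdh was called in 6 of 6 fits and Ldha in 1, that without Hnrnpl-null replicate 3. Slbp was at 25.3, 20.9 and 30.1 CPM across WT and 27.2, 23.8 and 21.9 CPM across Hnrnpl-null libraries, with full overlap (log2 fold change -0.05 ± 0.16, SE, n = 3 and 3, edgeR adjusted p = 0.913). Npat was at 31.9, 32.1 and 32.5 CPM across WT and 28.9, 26.9 and 26.2 CPM across Hnrnpl-null libraries (log2 fold change -0.23 ± 0.13, SE, n = 3 and 3, edgeR adjusted p = 0.368), so that its libraries did not overlap but the test was not passed.

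Of 27 histone chaperone and supply genes, Set, a chaperone and phosphatase inhibitor (0.70 ± 0.13, edgeR adjusted p = 0.00746), and Mcm2, a helicase subunit that also holds H3 and H4 (0.53 ± 0.13, edgeR adjusted p = 0.0409), rose, 0 fell, and the median log2 fold change was -0.04. Of 44 S phase and DNA replication genes, 6 rose (Mcm7, Rrm2, Mcm3, Rrm1, Cdt1 and Mcm2), 0 fell, and the median was 0.15. Over all genes tested, 2.67% rose and 1.79% fell, with a median of -0.01. At an unadjusted p below 0.05 in edgeR, 7 chaperone genes were higher and 2 lower, and 12 replication genes were higher and 0 lower. At that level 9.97% of all genes tested were higher and 8.53% lower. DESeq2 called 3 chaperone and 7 replication genes higher (4.07% over all genes), limma-voom 4 and 7 (5.22%), and both called 0 lower. Mcm7, a subunit of the replicative helicase, was at 29.4, 35.2 and 29.1 CPM across WT and 54.5, 46.7 and 56.9 CPM across Hnrnpl-null libraries. Rrm2, the small subunit of ribonucleotide reductase, was at 12.9, 11.4 and 14.9 CPM across WT and 21.7, 25.4 and 30.0 CPM across Hnrnpl-null libraries. Both were apart between the groups, by log2 fold changes of 0.74 ± 0.13 and 0.96 ± 0.18 (SE, n = 3 and 3, edgeR adjusted p of 0.00583 and 0.00751). Mcm7 was called in each fit with 1 library left out, Rrm2 and Set in all but that without WT replicate 2 (edgeR adjusted p of 0.0569 and 0.0618), Mcm3 in all but that without WT replicate 1 (0.0548), and Mcm2 in 0 of 6 (0.0502 to 0.150).

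Of 16 genes listed as replication-independent histone variants, 12 were tested. Macroh2a1, which encodes a macroH2A, and H3f3a, which encodes H3.3, rose and 0 fell, where 2.67% and 1.79% of all genes tested did. At an unadjusted p below 0.05 in edgeR, 8 were higher and 0 lower (9.97% and 8.53% of all genes tested). DESeq2 called 4 higher and limma-voom 3 (4.07% and 5.22% over all genes), and both called 0 lower. In 11 of the 12 the log2 fold change was above 0, against 48.8% of all genes tested, with a median of 0.41. The highest values were those of H2bu2 (1.44, passed through the Hnrnpl-null group alone), H4f16 (0.68) and H2ax (0.60). edgeR called 0 of these 3, and DESeq2 called H2ax. H2bu2 and H4f16 are H2B and H4 genes that the member rule does not take, and H2ax mRNA also occurs in a form that ends in the stem-loop. Over the other 9 tested, 8 were above 0 and the median was 0.34. Macroh2a1 was at 61.7, 67.8 and 63.2 CPM across WT and 87.2, 84.6 and 90.6 CPM across Hnrnpl-null libraries (log2 fold change 0.44 ± 0.11, SE, n = 3 and 3, edgeR adjusted p = 0.0324). H3f3a was at 86.6, 78.5 and 87.0 CPM across WT and 107, 108 and 127 CPM (log2 fold change 0.44 ± 0.11, SE, n = 3 and 3, edgeR adjusted p = 0.0447). The libraries of both genes were tight within each group and apart between groups. With 1 library left out, Macroh2a1 was called only without Hnrnpl-null replicate 3, and H3f3a in 0 of 6 fits (edgeR adjusted p of 0.0720 to 0.210). H2az1, which encodes H2A.Z, and H3f3b, the second H3.3 gene, were not called by edgeR, at log2 fold changes of 0.34 ± 0.13 and 0.38 ± 0.13 (SE, n = 3 and 3, edgeR adjusted p of 0.165 and 0.133). DESeq2 and limma-voom called H3f3b. In the summed level of these variants, the WT libraries (687, 611 and 694 CPM) stood in the order of the replication-dependent sum. The Hnrnpl-null libraries (839, 850 and 960 CPM) did so except for replicates 1 and 2, which lay close together.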

How the data were processed

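RNA was sequenced in 6 mouse ovary libraries. The authors deposited 1 table of raw counts per gene, per the file headers in the layout of featureCounts. The submitters' processing notes name STAR 2.7.11a, HISAT2 2.2.1, featureCounts 2.0.6 and build mm10. Not given in the sources used here are their roles, the strand setting, the annotation and the treatment of multi-mapping reads. Of counts from 1 to 20, 93.4% to 98.4% per library were even, so 1 read pair appears to be worth 2 counts.

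Counts were tested with edgeR 4.0.16 (R 4.3.3) on all 6 libraries: filterByExpr by group, TMM, genotype as the only term, glmQLFTest, two-sided, Benjamini-Hochberg over 14849 genes, called at 0.05. Standard errors come from the F statistic. DESeq2 1.42.0, limma 3.58.1 (voom), other scalings and filters, halved counts, a replicate block and each library left out were alternatives. In simulated counts for this comparison (14849 genes) the test called 57 of 60 genes changed 4-fold, 44 of 74 changed 2-fold and 8 of 66 changed 1.5-fold. The changed genes were drawn from those with a mean above 2 CPM, so these rates do not cover members below that level. The simulated counts did not carry the excess of even values. Within a group, pairs of libraries differed by more than counting noise (lowest chi-square/df 5.21). Sums and shares were given without a test, and depth limits genes with few counts. Stem-loop letters, promoter motifs and shared 50-base stretches were found by exact search.

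Named members are the called ones, the 3 with the highest level per kilobase in each class, the linker genes not tied to S phase, H2ac1 and H2bc1. In each other list up to 3 called genes of smallest p are named, with Slbp, Npat, H2az1, H3f3a and H3f3b. H1f3, H2ac8, H2bu2, H4f16, H2ax, Mcm3, Rrm1 and Cdt1 were named after their values were seen. So were the single leukocyte and macrophage, erythroid, endothelial, pregranulosa and stromal markers and the genes that only DESeq2 or limma-voom called. The members, lists and rules were chosen with earlier results of these data known.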

Additional observations from a re-analysis of the deposited data

How the results depend on the processing

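The count of 5 members called was 0 with library totals alone, where edgeR had 0 members at an unadjusted p below 0.05 and called 4 genes in the whole table. Beside 663 genes called in the whole table, it was 12 with DESeq2 (1071 in the whole table, 2 members without an adjusted p), 10 with limma-voom (1273), 20 with no filter (1104), 3 at an adjusted p below 0.01 (236), 14 below 0.10 (1092), and 8 (510) with the small RNA share as a covariate, which was added after seeing the data. Leaving out 1 library gave 2 to 7 called, the fewest without WT replicate 2. Without both Rn45s-rich libraries 5 were called, 4 of them shared with the full set, as H3c6 was lost (edgeR adjusted p = 0.0631) and H2bc18 gained. With the replicate number as a block 11 were called (444 in the whole table). The numbers do not pair the libraries by the labels, and the correlations of same-numbered deviations were -0.12, 0.09 and -0.09. Under the settings run, 0 members were lower. The log2 ratio of the summed level ranged from 0.55 to 0.92 when 1 library was left out and was 0.53 without both Rn45s-rich libraries.

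Signs turned in 3 genes, all uncalled. H2bc1 was at -0.041 with totals alone, -0.086 without Hnrnpl-null replicate 3 (-0.086 to 0.45 with 1 library left out) and -0.13 without both Rn45s-rich libraries. H1f10 was at -0.12, -0.11 (-0.11 to 0.24) and -0.16 under the same 3 settings and -0.076 with limma-voom. Slbp was at 0.10 without WT replicate 3 and 0.012 without Hnrnpl-null replicate 3 (-0.18 to 0.10 with 1 library left out), 0.013 without both Rn45s-rich libraries and 0.033 with limma-voom. The cause was not tested. Over all named genes, 540 values kept their direction and side of the threshold, 59 lost and 18 gained a call.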
